A study of Mus musculus with 7 samples.

Results

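The genes described here are 30 enzymes and transporters of fatty acid oxidation, chosen by name, of the 21878 genes in the count table of an RNA sequencing study of the mouse abdominal aorta. All 30 were found in the table, and all 30 passed the filter on low counts, as did 14609 genes in all. The study compared male C57BL/6 mice aged 8 weeks that lacked ApoE, the apolipoprotein whose loss raises plasma cholesterol, with mice that lacked both ApoE and Nur77, the nuclear receptor encoded by Nr4a1. All had been given angiotensin II (Ang II), a pressor peptide used to induce aortic aneurysm in such mice, for up to 28 days. There were 3 libraries labelled ApoE-/- (ApoE 1 to ApoE 3) and 4 labelled ApoE-/-Nur77-/- (here DKO 1 to DKO 4, for double knockout), so all 7 carry the loss of ApoE and the Ang II. The labels give neither the day of each animal nor whether libraries stem from different animals, and p-values therefore measure the spread between these libraries, which may be technical.

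Long-chain fatty acids enter mitochondria as carnitine esters and are then shortened by rounds of dehydrogenation, hydration, a second dehydrogenation and thiolysis, with electrons passed to the respiratory chain through electron transfer flavoprotein. The pathway is most active in heart, oxidative muscle, brown fat and liver, and the aorta is bordered by fat tissue. Peroxisomes carry out a related pathway on very long and branched chains. In RNA of whole tissue, fewer cells of a type and less RNA per cell cannot be told apart.

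As a set, the 30 genes had lower counts in the libraries labelled DKO than in those labelled ApoE-/-. The median log2 fold change was -0.77, against -0.02 for all genes tested, and 29 of the 30 were negative, against 52.6% of all genes. None of the 30 passed edgeR's quasi-likelihood test after Benjamini-Hochberg adjustment over all genes, a test that called 0.0274% of genes lower and 0% higher. Adjusted p ran from 0.114 for Slc27a1 to 0.990 for Cpt1a. At an unadjusted p under 0.05, 28 of the 30 were lower, against 11.8% of all genes, and 0 were higher, against 8%. For 20 of the 30 each DKO library lay below each ApoE library, against 9.24% of all genes, and for 0 each lay above, against 7.08%. DESeq2's Wald test on the same counts called 21 of the 30 lower, against 4.66% of all genes, and 0 higher, against 3.16%. The voom method of limma, with weights for sample quality, called 26 lower, against 10%, and 0 higher, against 6.17%, so whether members are called rests on the tool. The fold changes are those of libraries named by their labels: Nr4a1 itself was at 193, 56.4 and 111 CPM (read counts made comparable between libraries by size and TMM factor) in ApoE 1 to ApoE 3 and at 46.2, 57.0, 90.1 and 92.7 CPM in DKO 1 to DKO 4, and a difference was not shown (edgeR adjusted p = 0.360). Apoe, which both labels give as lacking, averaged 222 ± 34.4 CPM in the ApoE group (SD, n = 3) and 28.7 ± 7.52 CPM in the DKO group (SD, n = 4), and fell by 2.95 on the log2 scale (edgeR adjusted p = 0.0227). Which part of either gene is deleted is not given in the sources used here. Totals were 19295287 to 21727192 counts per library, and the 30 genes together took 0.277% to 0.362% of the counts in the DKO libraries and 0.408% to 0.696% in the ApoE libraries.

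**Figure D1:**
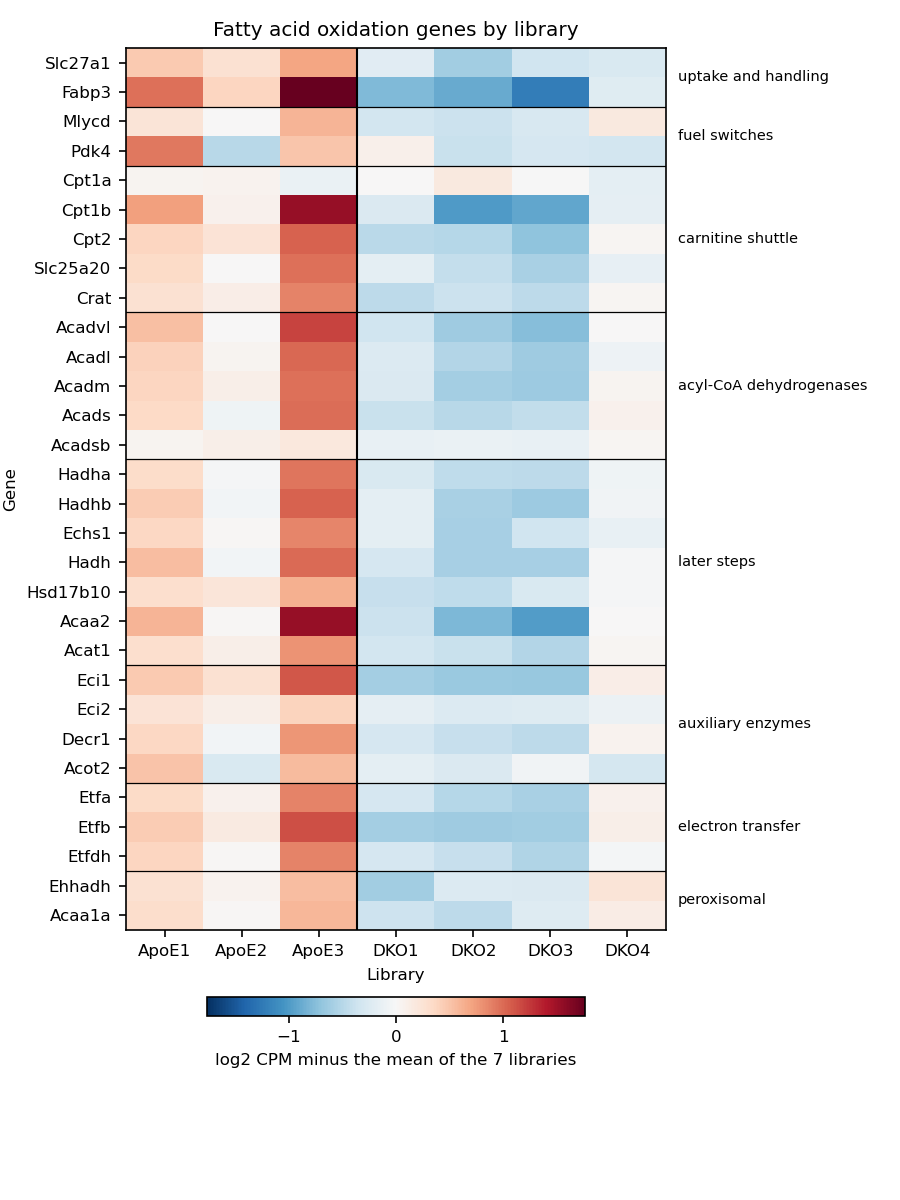
Level of each of the 30 genes (rows, by step of the pathway) in each of the 7 libraries (columns), as log2 CPM minus that gene's mean over the 7 libraries. ApoE 3 is the highest library for 28 of the 30 genes, and the Cpt1a row is nearly flat.

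The libraries kept nearly the same order from gene to gene. ApoE 3 was the highest of all 7 for 28 of the 30 genes, the exceptions being Pdk4 (highest in ApoE 1) and Cpt1a (highest in DKO 2). Within the ApoE group the order ApoE 3, ApoE 1, ApoE 2 held for 27 genes, and within the DKO group DKO 4 was the highest for 26. Of the 10 genes whose groups overlapped, 9 overlapped through ApoE 2 alone, which lay at or below the highest DKO library while ApoE 1 and ApoE 3 lay above all of them. ApoE 1 lay above every DKO library for 29 of the 30 genes. These orders were not counted over all genes. Mean levels of tricarboxylic acid cycle enzymes, nuclear oxidative phosphorylation subunits and white adipocyte markers, lists described below, followed the same order within the ApoE group. DKO 4 was also the highest of its group in each of those lists, so the order is not particular to the members.

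The stretches before the transcription starts of a few members are shown, without bases that GENCODE M21 gives as exons. They come from RefSeq promoter windows on GRCm38.p6 (250 bases before to 50 after each start). Of the 30 members, 25 had a window. Acadm, Acadvl and Cpt1a are shown because their upstream windows hold the 6 letters AGGTCA on either strand (in capitals, as TGACCT on the other strand), the core element that PPAR, RXR and ERR nuclear receptors bind. The Cpt1a window (chromosome 19, 3323051 to 3323350) lies inside the coordinates of the gene (3322326 to 3385735). It precedes a start within the gene and not the first base of the gene. Acadl, a dehydrogenase with nearly the same fold change as Acadm, is shown for comparison and has none. The last is the stretch free of exons between the divergent starts of Hadha and Hadhb, which lie 273 bases apart on chromosome 5 and encode the subunits of 1 enzyme.
Acadm (chr3:153944644-153944893, minus strand): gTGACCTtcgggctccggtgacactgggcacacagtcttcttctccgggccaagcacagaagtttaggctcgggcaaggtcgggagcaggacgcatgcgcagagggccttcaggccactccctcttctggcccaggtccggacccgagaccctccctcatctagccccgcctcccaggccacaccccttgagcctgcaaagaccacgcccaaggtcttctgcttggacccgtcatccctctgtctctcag
Acadvl (chr11:70015429-70015678, minus strand): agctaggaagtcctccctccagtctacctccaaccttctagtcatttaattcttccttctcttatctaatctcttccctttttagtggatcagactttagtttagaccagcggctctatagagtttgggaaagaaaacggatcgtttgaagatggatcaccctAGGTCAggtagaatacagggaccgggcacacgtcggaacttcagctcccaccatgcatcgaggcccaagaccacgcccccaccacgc
Acadl (chr1:66863310-66863559, minus strand): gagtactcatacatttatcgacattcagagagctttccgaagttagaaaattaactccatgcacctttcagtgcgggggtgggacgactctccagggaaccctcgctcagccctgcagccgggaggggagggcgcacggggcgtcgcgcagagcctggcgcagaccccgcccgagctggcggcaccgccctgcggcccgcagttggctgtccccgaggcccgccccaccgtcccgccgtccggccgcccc
Cpt1a (chr19:3323051-3323284, plus strand): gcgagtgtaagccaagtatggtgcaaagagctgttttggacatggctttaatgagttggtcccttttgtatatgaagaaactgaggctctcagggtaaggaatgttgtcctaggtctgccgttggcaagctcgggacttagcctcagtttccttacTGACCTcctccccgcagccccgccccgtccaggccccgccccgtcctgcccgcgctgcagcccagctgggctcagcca
Hadha and Hadhb (chr5:30155163-30155247, plus strand): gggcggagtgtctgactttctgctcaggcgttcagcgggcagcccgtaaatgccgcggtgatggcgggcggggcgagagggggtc
The core element was in the windows of 4 of 25 member genes (16.0%), the fourth being Echs1, and in 16.3% of all 32851 windows. The element of ERR, TCAAGGTCA, was in 0 of the 25 and in 0.423% of all windows. The direct repeat of PPAR and RXR, AGGTCANAGGTCA, was in 0 of the 25 and in 0.0396% of all windows. Both strands were searched, and each of the longer motifs holds the core element. Among the 4 genes with the core element, Cpt1a had a log2 fold change of 0.00, Echs1 of -0.75, Acadm of -0.86 and Acadvl of -1.06, so they took in the member without a difference as well as members near and beyond the median.

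Fatty acid uptake and binding held the widest difference among the members. Fabp3, the fatty acid binding protein of heart and oxidative muscle that is also made in brown fat (chromosome 4, 130308738 to 130315463), was at 99.3, 66.2 and 172 CPM in ApoE 1 to ApoE 3. It was at 29.6, 27.5, 21.8 and 43.8 CPM in DKO 1 to DKO 4. Each ApoE library lay above each DKO library, and the mean was 3.67-fold higher in the ApoE group (log2 fold change -1.88, SE 0.35, 95% interval -2.70 to -1.06, edgeR adjusted p = 0.121). Slc27a1, the transport protein FATP1 that takes fatty acids into muscle and fat cells (chromosome 8, 71568728 to 71587307), was at 266, 231 and 311 CPM against 168, 125, 151 and 159 CPM. It had a smaller fold and a tighter spread than Fabp3 (269 ± 40.0 CPM in the ApoE group, SD, n = 3, and 151 ± 18.5 CPM in the DKO group, SD, n = 4; log2 fold change -0.84, SE 0.14, edgeR adjusted p = 0.114), which gave it the smallest p of the 30.

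The carnitine shuttle held both a member with no measurable difference and one of the widest. Cpt1a, the carnitine palmitoyltransferase of liver and of most other tissues and the step that malonyl-CoA inhibits (chromosome 19, 3322326 to 3385735), was at 138, 139 and 123 CPM in the ApoE libraries and at 134, 149.5, 133 and 118 CPM in the DKO libraries. The groups overlapped throughout (log2 fold change 0.00, SE 0.10, 95% interval -0.24 to 0.24, edgeR adjusted p = 0.990). Cpt1b, the form of heart, skeletal muscle and brown fat that catalyses the same reaction (chromosome 15, 89416405 to 89425862), was at 163, 104 and 286 CPM against 83.0, 49.6, 52.6 and 88.7 CPM. Its groups did not overlap (log2 fold change -1.43, SE 0.36, 95% interval -2.28 to -0.59, edgeR adjusted p = 0.156). On the scale per gene length, the FPKM of Cpt1b was 1.63, 1.03 and 3.20 times that of Cpt1a in ApoE 1 to ApoE 3 and 0.812, 0.426, 0.519 and 1.03 times in DKO 1 to DKO 4. The ApoE ratios therefore all lay above the DKO ratios, by a hair in the case of ApoE 2 and DKO 4. The mean log2 ratio differed by -1.42 (p = 0.0571 in an exact permutation test, two-sided, which with 35 splits can go no lower), and by -1.36 with CPM in place of FPKM, where the groups overlapped (exact permutation p = 0.114). Without ApoE 3 the FPKM difference was -0.98. Counts of Cpt1b may hold reads of the overlapping Gm44502 on the same strand.

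The other shuttle genes lay between these forms. Cpt2, the transferase of the inner membrane (chromosome 4, 107903982 to 107923589), was at 102, 93.4 and 162 CPM against 56.5, 55.5, 48.1 and 81.0 CPM, without overlap (log2 fold change -0.98, SE 0.24, edgeR adjusted p = 0.153). Slc25a20, the carrier that exchanges acylcarnitine for carnitine across that membrane, was at 89.8, 71.8 and 139.6 CPM against 63.6, 53.1, 48.2 and 64.3 CPM, again without overlap (log2 fold change -0.81, SE 0.23). Crat, which transfers short acyl groups, was at 220.2, 198 and 332 CPM against 133, 140.2, 132 and 187 CPM, with DKO 4 close under ApoE 2. Of the 5 shuttle genes 4 were negative with an unadjusted p under 0.05, against 11.8% of all genes, and 0 passed the adjusted test, against 0.0274% called lower.

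**Figure D2:**
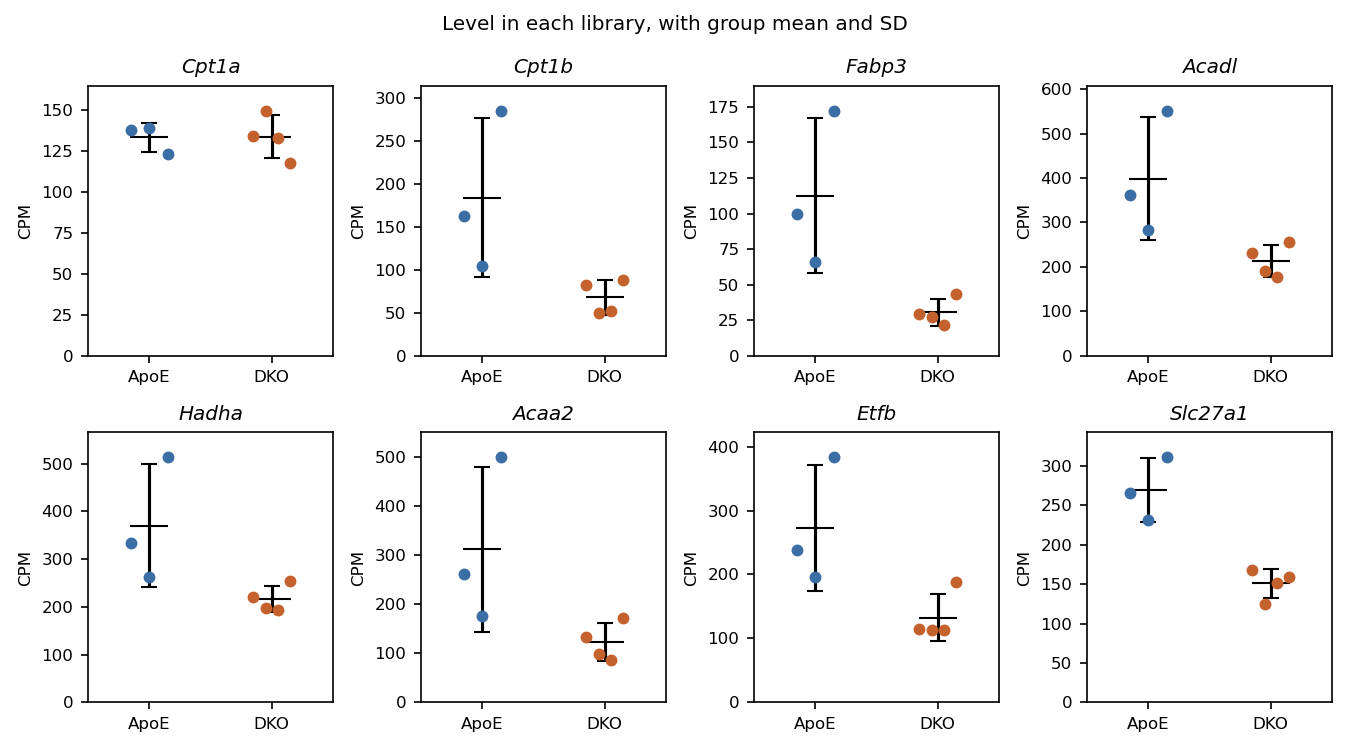
CPM of 8 members in each library (points), with the group mean (horizontal line) and SD (bar), ApoE n = 3 and DKO n = 4, each axis starting at 0. The groups overlap for Cpt1a and are apart for the other 7, narrowly for Acaa2 (175 against 172 CPM).

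The 4 dehydrogenases of straight chains, which open each round, shared much of their pattern, and the branched-chain member differed little. Acadl, for long chains (chromosome 1, 66830839 to 66863309), was at 361, 282 and 552 CPM against 231, 191, 178 and 256 CPM (log2 fold change -0.90, SE 0.24, edgeR adjusted p = 0.158). Acadm, for medium chains (chromosome 3, 153922353 to 153944643), was at 339, 279 and 510.0 CPM against 219, 171, 167 and 268 CPM (log2 fold change -0.86, SE 0.25). In both, the narrowest gap was between ApoE 2 and DKO 4, and the groups did not overlap. Acadvl, for very long chains (chromosome 11, 70010183 to 70015428), was at 333, 230.0 and 526 CPM against 179.8, 149, 137 and 231 CPM. Here DKO 4 was level with ApoE 2, and the log2 fold change was -1.06 (SE 0.30). Acads, for short chains, averaged 105 ± 39.4 CPM in the ApoE group (SD, n = 3) and 61.6 ± 12.0 CPM in the DKO group (SD, n = 4), with overlap. Acadsb, which acts on short branched chains from isoleucine (chromosome 7, 131410601 to 131446211), was at 109, 114 and 121 CPM against 96.7, 97.0, 97.0 and 108 CPM, groups that did not overlap although the log2 fold change was only -0.20 (SE 0.08, 95% interval -0.39 to -0.01, edgeR adjusted p = 0.226). Among the summed FPKM of the 5 dehydrogenases, Acadl made up 34.8% on average in the ApoE libraries and 33.7% in the DKO libraries. Acadsb made up 6.98% and 10.3%, with ApoE 2 (9.19%) above DKO 4 (8.84%). Acadvl overlaps Dvl2 and Acadsb overlaps Fgfr2 on the opposite strand, and whether counting used strand is not given in the sources used here. Protein-coding genes on the opposite strand also overlap Fabp3 (Zcchc17, Gm10570), Hadha (Garem2), Echs1 (Paox), Crat (Dolpp1), Acaa1a (Slc22a14, Myd88) and Etfdh (4930579G24Rik). Etfb overlaps Gm45233 on the same strand.

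Genes of the later steps were alike in direction. All 7 were negative with an unadjusted p under 0.05, against 11.8% of all genes, and 6 of 7 did not overlap between groups, against 9.24%. The adjusted test passed 0 of them, against 0.0274% of all genes called lower. Hadha and Hadhb encode the subunits of the mitochondrial trifunctional protein, which carries out the last 3 reactions of a round on long chains. Hadha (chromosome 5, 30119423 to 30154980) was at 334, 264 and 514 CPM against 221, 197, 195 and 254 CPM (log2 fold change -0.77, SE 0.23). Hadhb (chromosome 5, 30155253 to 30184593) was at 243, 173 and 367 CPM against 158, 121, 115 and 172 CPM (log2 fold change -0.88, SE 0.26). Their FPKM kept close to a fixed ratio, Hadha to Hadhb, of 1.42 to 1.59 in the ApoE libraries and 1.51 to 1.84 in the DKO libraries, while each gene itself ranged over more than the ratio did. They are the pair whose shared upstream stretch is printed above.

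Of the enzymes for medium and short chains, Acaa2, the mitochondrial thiolase (chromosome 18, 74779212 to 74806207), was widest apart, at 261, 175 and 499 CPM against 132, 99.3, 86.7 and 172 CPM. ApoE 2 and DKO 4 were nearly equal, and the log2 fold change was -1.35 (SE 0.38, 95% interval -2.23 to -0.46, edgeR adjusted p = 0.158). Hadh, the short-chain hydroxyacyl-CoA dehydrogenase, averaged 240.2 ± 83.2 CPM in the ApoE group (SD, n = 3) and 128 ± 24.8 CPM in the DKO group (SD, n = 4) and overlapped through ApoE 2 (158 CPM) and DKO 4 (161 CPM). Echs1, the short-chain hydratase, was at 156 ± 45.8 against 92.5 ± 12.6 CPM. Acat1, the thiolase of acetoacetyl-CoA that also serves ketone bodies and isoleucine, was at 176 ± 44.9 against 107 ± 18.5 CPM. Hsd17b10, a dehydrogenase of isoleucine breakdown that is also a subunit of mitochondrial RNase P, was at 79.4, 75.0 and 99.4 CPM against 48.6, 47.0, 53.2 and 63.7 CPM. Its SE was the smallest of the 7 (log2 fold change -0.67, SE 0.14, edgeR adjusted p = 0.135).

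Auxiliary enzymes, which prepare unsaturated acyl chains or release free acids, ranged from one of the wider differences to one of the narrower. Eci1, the mitochondrial isomerase of double bonds (chromosome 17, 24426683 to 24439316), was at 118, 104 and 184 CPM against 56.8, 54.7, 54.0 and 93.2 CPM, with DKO 4 apart from the other DKO libraries (log2 fold change -1.06, SE 0.27, edgeR adjusted p = 0.155). Eci2, the isomerase found in both mitochondria and peroxisomes, was at 70.4, 64.3 and 78.3 CPM against 53.6, 50.4, 50.9 and 55.5 CPM. Its difference was small beside a small spread (log2 fold change -0.43, SE 0.09, edgeR adjusted p = 0.132). Decr1, the dienoyl-CoA reductase, averaged 133 ± 37.6 CPM in the ApoE group (SD, n = 3) and 84.1 ± 14.6 CPM in the DKO group (SD, n = 4), with overlap. Acot2, a mitochondrial thioesterase, was the lowest member per length (6.51 ± 1.78 against 4.87 ± 0.453 FPKM) and overlapped because ApoE 2 (9.42 CPM) lay within the DKO range of 9.15 to 10.8 CPM. Reads of Acot2 may be split with its close paralog Acot1, which was at 3.86 to 4.02 CPM in the ApoE libraries and 1.69 to 3.54 CPM in the DKO libraries.

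Electron transfer flavoprotein and its oxidoreductase hand the electrons of the first dehydrogenation to ubiquinone. Etfb, the beta subunit (chromosome 7, 43444072 to 43457800), was the highest member per length, at 220.3 ± 64.7 FPKM in the ApoE group (SD, n = 3) and 116 ± 29.3 FPKM in the DKO group (SD, n = 4). In CPM it was at 238, 195 and 384 against 115, 113, 114 and 189, so 3 DKO libraries lay within a narrow band and DKO 4 just under ApoE 2 (log2 fold change -1.04, SE 0.28, edgeR adjusted p = 0.158). Etfa, the alpha subunit, was at 164, 138 and 239 CPM against 106, 92.2, 87.6 and 137 CPM (log2 fold change -0.77, SE 0.23). Etfdh, the oxidoreductase of the inner membrane, was at 126, 98.3 and 178 CPM against 79.3, 73.5, 67.3 and 94.4 CPM (log2 fold change -0.77, SE 0.21). None of the 3 overlapped between groups, against 9.24% of all genes that were lower without overlap. The FPKM of Etfa was 0.481 to 0.546 times that of Etfb in the ApoE libraries and 0.520 to 0.666 times in the DKO libraries.

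Both peroxisomal members overlapped between groups. Ehhadh, the peroxisomal bifunctional enzyme, was at 48.3, 42.2 and 58.5 CPM against 26.5, 34.1, 33.9 and 47.3 CPM (log2 fold change -0.49, SE 0.20, edgeR adjusted p = 0.242). Acaa1a, the peroxisomal thiolase, was at 102, 83.6 and 124 CPM against 64.1, 59.6, 70.7 and 90.1 CPM (log2 fold change -0.54, SE 0.18, edgeR adjusted p = 0.184). In each case DKO 4 lay above ApoE 2. Acaa1a has a near-identical paralog, Acaa1b, at 26.5, 35.3 and 60.9 CPM against 18.1, 14.2, 22.4 and 42.2 CPM, and reads of the pair may have been split.

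The switches between fuels overlapped as well. Pdk4, a kinase that inhibits pyruvate dehydrogenase (chromosome 6, 5483351 to 5496278), was at 307, 115 and 226 CPM against 172, 123, 132 and 129 CPM. ApoE 2 was the lowest library of all 7, and the 95% interval of the log2 fold change took in 0 (-0.64, SE 0.30, interval -1.34 to 0.07, edgeR adjusted p = 0.294). Pdk4 and Cpt1a were the only members with an unadjusted p above 0.05. Mlycd, which removes the malonyl-CoA that holds back the carnitine shuttle, was at 37.7, 32.4 and 48.8 CPM against 25.8, 24.8, 26.5 and 36.3 CPM (log2 fold change -0.48, SE 0.19, edgeR adjusted p = 0.215).

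**Figure D3:**
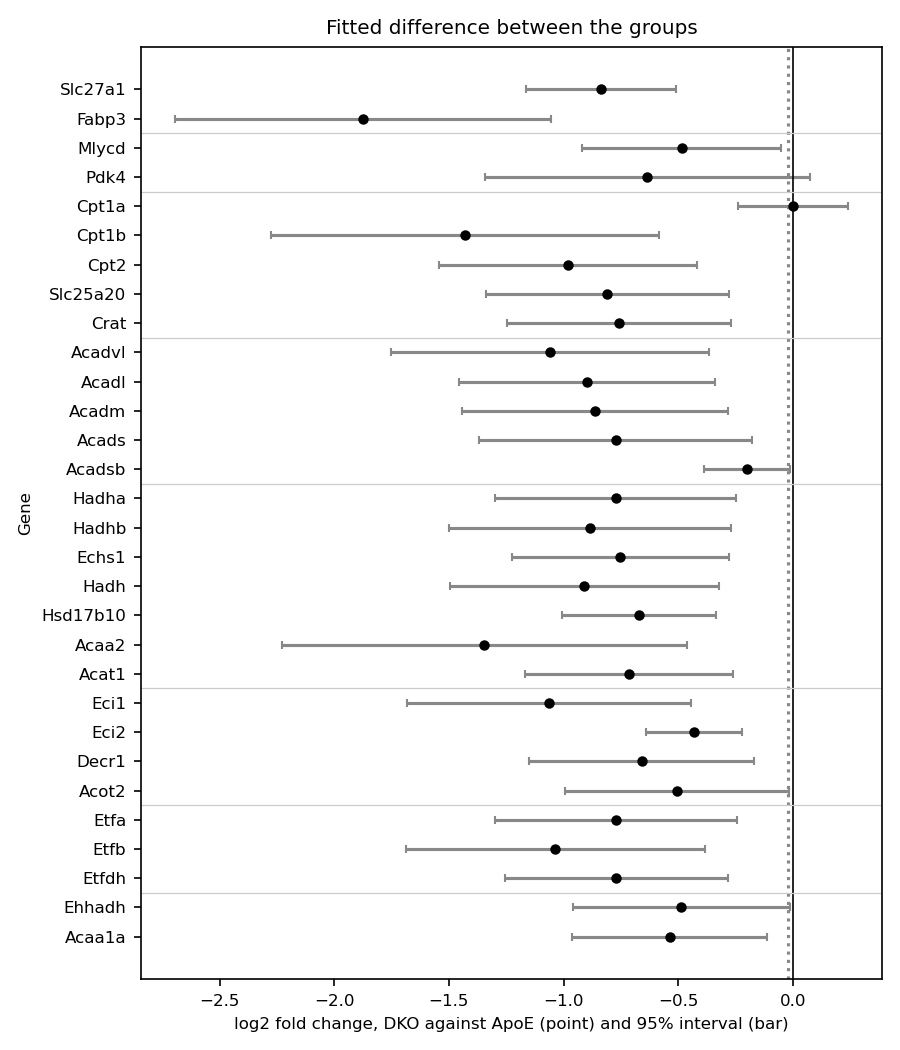
Fitted log2 fold change of each member, libraries labelled DKO against those labelled ApoE-/- (points), with 95% intervals (bars); the dotted line is the median of all genes tested, -0.02, and thin lines part the steps. Fabp3 lies farthest to the left at -1.88, and the interval of Cpt1a (-0.24 to 0.24) is centred near 0.

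Neighbouring genes of the pathway, in lists that do not contain the members, were read from the same fit, with the same background percentages. Of 14 tested genes of fatty acid uptake and activation, 12 were negative (median log2 fold change -0.26), 5 were lower at an unadjusted p under 0.05 and 0 passed the adjusted test. They included Acsl1, the acyl-CoA synthetase of fat and heart (580.0 ± 78.9 CPM in the ApoE group, SD, n = 3, and 300.5 ± 41.4 CPM in the DKO group, SD, n = 4; log2 fold change -0.95, SE 0.15), Slc27a2 (40.8 ± 28.8 against 9.51 ± 4.90 CPM) and Fabp4, the binding protein of adipocytes, which is also on the white adipocyte list below (3780.3 ± 990.0 against 1630.4 ± 344 CPM). All 19 genes on a list of other acyl-CoA enzymes, most but not all of them mitochondrial, were negative (median -0.57). Of the 19, 16 were lower at an unadjusted p under 0.05 and 0 passed the adjusted test. Nudt19, a hydrolase of acyl-CoA, was at 32.3 ± 5.89 against 16.0 ± 1.58 CPM, and Hibch of valine breakdown (log2 fold change -0.74, SE 0.14) and Pccb, a subunit of propionyl-CoA carboxylase (log2 fold change -0.76, SE 0.17), had smaller differences. Of 17 other peroxisomal enzymes tested, 17 were negative (median -0.47) and 9 were lower at an unadjusted p under 0.05. Abcd2, a peroxisomal acyl-CoA transporter, was at 44.1 ± 2.37 against 28.8 ± 1.75 CPM and Ech1 at 304 ± 94.5 against 128 ± 24.4 CPM, and 0 of the 17 passed the adjusted test.

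Of the 9 genes of malonyl-CoA and pyruvate dehydrogenase control, 5 were negative (median log2 fold change -0.36), 4 of them at an unadjusted p under 0.05 and 0 past the adjusted test. Acacb, the carboxylase that makes malonyl-CoA at the mitochondrial surface, averaged 351 ± 174 CPM in the ApoE group (SD, n = 3) and 130.2 ± 49.0 CPM in the DKO group (SD, n = 4). Its log2 fold change of -1.43 (SE 0.38) was the same to 2 decimals as that of Cpt1b, whose step that product inhibits. Acaca, the carboxylase of fatty acid synthesis, was at 391 ± 202 against 176 ± 42.9 CPM, and Pdk2, a relative of Pdk4, at 108 ± 30.8 against 56.0 ± 9.25 CPM. The 5 ketone body enzymes were negative (median -0.28) with 0 at an unadjusted p under 0.05, among them Bdh2 (log2 fold change -0.31, SE 0.17) and Bdh1 (-0.57, SE 0.41). Among 17 tested transcriptional regulators, 12 were negative (median -0.15), 6 of them at an unadjusted p under 0.05, against 11.8% of all genes. Of the 17, 1 passed the adjusted test: Lpin1, a phosphatidate phosphatase that is also a coactivator of fatty acid oxidation genes, fell from 126 ± 11.7 to 56.3 ± 4.33 CPM (log2 fold change -1.16, SE 0.10, edgeR adjusted p = 0.0227). Ppargc1a, the coactivator of mitochondrial genes, averaged 11.8 ± 3.11 CPM and 4.30 ± 0.723 CPM in the 2 groups (log2 fold change -1.45, SE 0.24, edgeR adjusted p = 0.114). Ppargc1a is also on the brown adipocyte list below. Pparg, the nuclear receptor of adipocyte differentiation, averaged 75.8 ± 10.7 CPM and 42.0 ± 9.06 CPM (log2 fold change -0.85, SE 0.18, edgeR adjusted p = 0.136).

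Downstream of the pathway, the enzymes of the tricarboxylic acid cycle and the nuclear subunits of oxidative phosphorylation had medians close to that of the members. The medians were -0.76 over 18 cycle enzymes and -0.84 over 20 subunits, beside -0.77 over the 30 members, and all of both lists were negative with 0 past the adjusted test. Of the cycle enzymes Mdh2 averaged 337 ± 92.5 CPM in the ApoE group (SD, n = 3) and 189.9 ± 25.2 CPM in the DKO group (SD, n = 4), Idh2 at 142 ± 25.4 against 96.2 ± 8.08 CPM and Idh3b at 278 ± 105 against 143 ± 28.5 CPM. Of the subunits, log2 fold changes were -0.85 for Cox4i1, -0.83 for Ndufa9 and -0.95 for Ndufv1. The mean log2 CPM of the members was 7.13, 6.77 and 7.58 in the ApoE libraries and 6.41, 6.24, 6.23 and 6.69 in the DKO libraries. For the cycle enzymes the levels were 7.71, 7.41 and 8.31 against 7.10, 6.99, 6.87 and 7.38. In both lists ApoE 3 was highest and DKO 4 was the highest of its group.

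**Figure D4:**
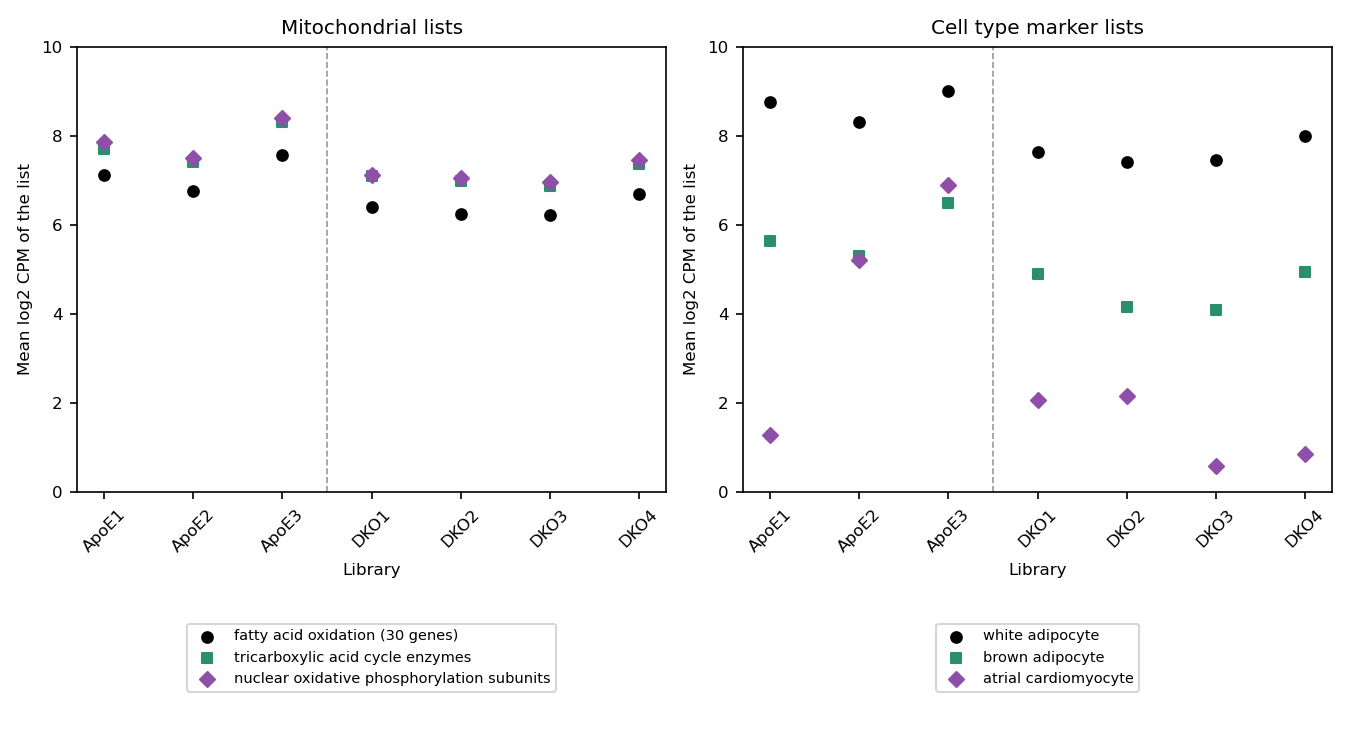
Mean log2 CPM of each list in each library: at left the members and 2 mitochondrial lists, at right 3 lists of cell type markers. The white adipocyte level separates the groups, as the level of the members does, and the atrial cardiomyocyte level is high in ApoE 2 and ApoE 3 only.

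Markers of fat cells moved with the members. All 15 white adipocyte markers were negative (median log2 fold change -1.05), and their summed level was 11978.1 to 16411.6 CPM in the ApoE libraries and 5969.2 to 9210.8 CPM in the DKO libraries. Adipoq, the adipokine gene, was at 536, 595 and 669 CPM against 287, 306, 294 and 421 CPM, and Plin1, the coat protein of fat droplets, at 273, 257 and 382 CPM against 134, 127, 136 and 189.9 CPM. All 9 tested brown adipocyte markers of 10 were negative (median -1.41), with sums of 584 to 1609.6 CPM against 256 to 506 CPM. The uncoupling protein gene Ucp1 was at 469, 242 and 796 CPM against 256, 105, 72.1 and 198 CPM, Elovl3 at 10.5 to 29.3 CPM against 2.66 to 14.5 CPM, and Zic1 was at 0 in 6 of the 7 libraries. Smooth muscle markers, which define the labelled tissue, were present in every library (Myh11 at 1778.6 to 6099.8 CPM) and overlapped between groups. The adventitial fibroblast level also separated the groups, at 9.65 to 9.79 log2 CPM in the ApoE libraries and 9.13 to 9.53 log2 CPM in the DKO libraries, and its markers were split. Of its 7 markers 4 were lower without overlap at an unadjusted p under 0.05, namely Pi16 (log2 fold change -1.45), Dpt (-0.52), Cd34 (-0.52) and Dcn (-0.43). Over all genes 11.8% were lower at that p and 9.24% were lower without overlap. The markers Col1a1 (0.32), Pdgfra (0.24) and Lum (0.23) were positive with overlap. None of the 7 passed the adjusted test, and their summed level overlapped, at 12500.2 to 13954.5 CPM against 9588.2 to 18983.6 CPM. Macrophage (Adgre1, Cd68), endothelial (Pecam1, Cdh5), T cell (Cd3e, Cd3d), B cell (Ms4a1), Schwann cell, mesothelial (Msln, Upk3b), chromaffin (Th, Dbh) and erythroid (Hba-a1, Hbb-bs) lists had medians of 0.34, -0.16, 0.74, 0.51, -0.45, -1.23, -0.39 and 0.96 in that order. Some of these lists were low or uneven within a group. Mesothelial sums were 2.88 to 12.9 CPM in the ApoE libraries and 2.18 to 5.02 CPM in the DKO libraries. Chromaffin sums were 4.75 to 565 CPM against 17.9 to 667 CPM, and B cell sums 3.05 to 58.9 CPM against 15.1 to 66.9 CPM. The sums of these lists overlapped between groups. The hepatocyte list had 0 tested genes, with Alb at 0.144 to 5.24 CPM and Ttr at 0 to 1.02 CPM. The part of fat cells and fibroblasts in the difference of the members was not tested by any direct measure of cell number.

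Heart muscle markers were unequal within the ApoE group. All 9 tested atrial cardiomyocyte markers were negative (median log2 fold change -3.69), 8 of them at an unadjusted p under 0.05, against 11.8% of all genes. The groups were apart for 1 of the 9, against 9.24% of all genes, and 0 passed the adjusted test. The summed level of 11 atrial cardiomyocyte markers was 82.8, 433 and 1480.8 CPM in ApoE 1 to ApoE 3 and 49.1 to 106 CPM in the DKO libraries, and Myl7 was at 0 in ApoE 1 and 111.5 CPM in ApoE 3 against 0 to 1.20 CPM. Myl4 was at 5.85, 50.3 and 180.2 CPM against 4.44 to 7.16 CPM. The summed level of ApoE 1 lay within the DKO range, but not every marker did: Tnnt2 was at 15.1 CPM in ApoE 1 against 7.02 to 11.3 CPM. The part of heart muscle in the difference of the members was not tested, and the fits with ApoE libraries left out that follow do not test it. With ApoE 1 as the only ApoE library, assumed to vary like the DKO libraries, the median log2 fold change of the members was -0.67, all 30 were negative and 23 had an unadjusted p under 0.05, against 5.61% of all genes (0 passed the adjusted test). With 1 ApoE library those p-values hold no spread within the ApoE group. The 30 members also share that library, so their count under 0.05 is not one of separate events. Only the fold changes are read from that fit. Without ApoE 3 alone the median of the members was -0.51 and 21 had an unadjusted p under 0.05, against 6.32% of all genes. Skeletal muscle markers overlapped, with sums of 18.6 to 119.7 CPM against 9.24 to 80.1 CPM (log2 fold change of Acta1 -0.61, SE 0.97; Ckm at 4.96 to 48.8 CPM against 2.11 to 11.4 CPM).

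With the white adipocyte level as a covariate the direction of the members turned. Their median log2 fold change was 0.31, only 6 of the 30 were negative, 0 passed the adjusted test and 0 were lower at an unadjusted p under 0.05, against 4.19% of all genes. At that p 1 was higher, Decr1 (log2 fold change 0.46, edgeR adjusted p = 0.685), against 2.4% of all genes. Slc27a1 (-0.29) and Cpt1a (-0.36) were the most negative and Acaa2 (0.71) the most positive. The adipocyte level did not overlap between groups (8.31 log2 CPM or more against 8.00 or less), so in this fit the group difference rests on how genes followed that level within groups of 3 and 4 libraries, and adipocyte content and genotype cannot be told apart by it.

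**Figure D5:**
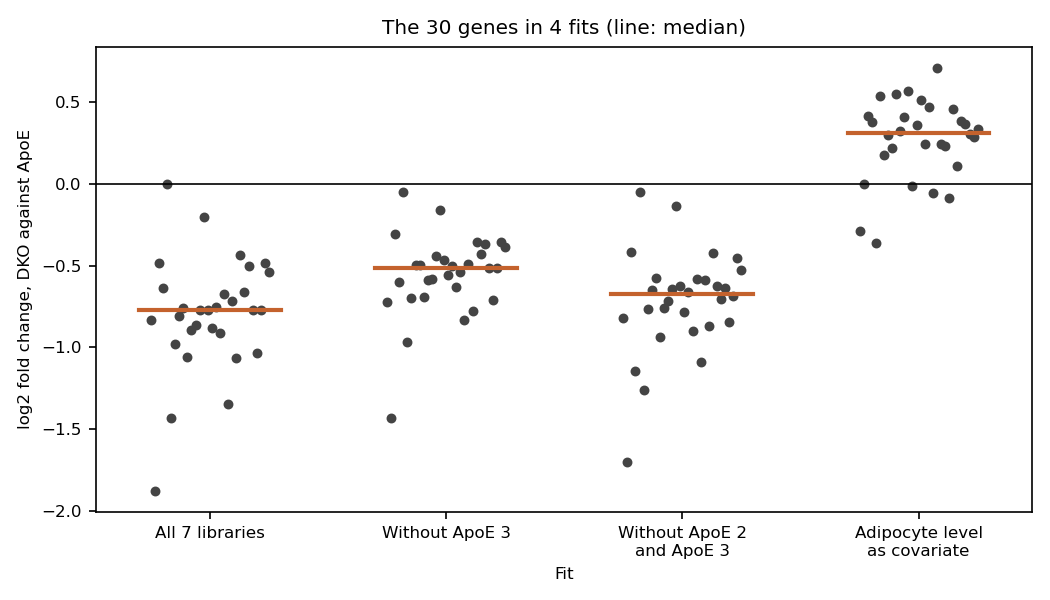
log2 fold change of the 30 members (points) in 4 fits, with the median of each (line). The medians are -0.77 with all libraries, -0.51 without ApoE 3, -0.67 without ApoE 2 and ApoE 3, and 0.31 with the white adipocyte level as a covariate.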

How the data were processed

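Polyadenylated RNA of the abdominal aorta was sequenced from TruSeq Stranded mRNA libraries, per the labels' protocols. The submitters' processing notes name Trimmomatic, HISAT2, HTSeq, Cufflinks, DESeq and GRCm38.p6, with no versions or roles; the strand setting of the counting is not given in the sources used here. The deposited gene counts are whole numbers that were not normalized. The deposited FPKM values were scaled by the authors for gene length and depth, and were used to compare levels between genes. Columns were matched to samples by genotype and number.

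Counts were filtered with edgeR's filterByExpr (minimum count 10), scaled by TMM and tested with the quasi-likelihood test, ApoE 1 to 3 against DKO 1 to 4, with Benjamini-Hochberg adjustment over 14609 genes and genes under 0.05 were called. SE was taken as |log2 fold change| divided by sqrt(F). A list's level averages its genes' log2 CPM, with a prior count of 2. A count of 0 allowed up to 0.133 to 0.164 CPM (3 counts; counting error only). On simulated counts the test called 0% of 200 altered genes at a 1.5-fold change, 34% at 2-fold and 86.5% at 4-fold. No 2 libraries agreed within sampling noise (lowest chi-square per gene 35.1). Software: edgeR 4.0.16, DESeq2 1.42.0 and limma 3.58.1 in R 4.3.3, and Python 3.11.15. All 30 members were matched to RefSeq coordinates on GRCm38.p6.

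The members, lists, tests and most alternatives were chosen with earlier results of these data known. Named genes were all members, the 3 smallest p of each neighbouring list and the first 2 markers of each cell type; a few of these are not reported here. Zic1, Cd34, Dcn, Col1a1, Pdgfra and Lum were named after their values were seen. Alternatives were other size factors, tools and filters, the replicate number as a block, libraries left out, an adipocyte covariate and limma on log2 FPKM (pseudocounts 1 and 0.1).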

Additional observations from a re-analysis of the deposited data

Results flagged for a closer look

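In 6 of the 30 genes 1 of the 4 DKO libraries stood apart from the other 3 by Dixon's criterion for outliers (the gap to the nearest library over the whole range), and in each case it was DKO 4, the high one. Etfb was at 189 CPM in DKO 4 and at 113 to 115 CPM in the others, Eci1 at 93.2 CPM against 54.0 to 56.8 CPM, and Crat at 187 CPM against 132 to 140.2 CPM. Acads was at 79.4 CPM against 53.7 to 57.2 CPM, Mlycd at 36.3 CPM against 24.8 to 26.5 CPM, and Acadsb at 108 CPM against 96.7 to 97.0 CPM. Chance alone gives such a gap in about 5% of groups of this size, and the 30 genes share their libraries, so the 6 are not separate events. The share of all genes with such a gap was not counted, so the 6 are not shown to be particular to the members. DKO 4 also had the highest white adipocyte level (8.00 log2 CPM against 7.42 to 7.64) and smooth muscle level (10.9 against 9.19 to 9.97) of its group. The part of either in these genes was not tested.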

How the results depend on the processing

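The count of members called lower was 0 in every alternative except DESeq2's Wald test (21) and limma voom with quality weights (26), and 0 were called higher in any. Genes called lower over all genes numbered 4, and 681 with DESeq2, 1467 with voom, 0 with ApoE 2 and ApoE 3 left out together, 0 with the adipocyte covariate, 0 with unfiltered log2(FPKM + 1), and 0 to 2 with each library left out in turn. Genes called higher numbered 0, and 461 with DESeq2, 902 with voom, 1 with filtered log2(FPKM + 1) or log2(FPKM + 0.1), and 0 to 4 with each library left out. At an unadjusted p under 0.05, edgeR gave 1724 genes lower and 1168 higher. The median of the members was -0.94 to -0.51 with each library left out, and -0.83 to -0.65 with other size factors, DESeq2, voom, other filters or FPKM.

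ApoE and DKO libraries with the same number deviated together only in part (correlations -0.39, 0.70 and 0.0036). Libraries with unlike numbers were not set beside them, so these values cannot tell whether the numbers pair the libraries. With the replicate number as a block, on the libraries numbered 1 to 3, 0 genes were called lower over all genes and the members' median was -0.84; without the block on those libraries, a fit added after seeing the data, the values were 0 and -0.87.

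The adipocyte covariate turned the members' median to 0.31 and the sign of single genes, to these log2 fold changes: Mlycd 0.42, Pdk4 0.38, Cpt1a -0.36, Cpt1b 0.54, Cpt2 0.18, Slc25a20 0.30, Crat 0.22, Acadvl 0.55, Acadl 0.32, Acadm 0.41, Acads 0.57, Hadha 0.36, Hadhb 0.51, Echs1 0.24, Hadh 0.47, Acaa2 0.71, Acat1 0.25, Eci1 0.24, Decr1 0.46, Acot2 0.11, Etfa 0.39, Etfb 0.37, Etfdh 0.31, Ehhadh 0.29, Acaa1a 0.34. Among the neighbouring genes it turned Slc27a2 0.20, Bdh2 0.32, Bdh1 0.10, Pdk2 0.13, Acacb 0.10, Acaca 0.30, Cox4i1 0.16, Ndufa9 0.22, Ndufv1 0.35, Pccb 0.098, Mdh2 0.13, Idh2 0.058, Idh3b 0.42. The cause was not tested. Cpt1a, at 0.00 with all libraries, also had small negative values with voom (-0.00682), without ApoE 2 and ApoE 3 (-0.049), and with a library left out it ran from -0.052 (without ApoE 3) to 0.058 (without DKO 4). With Cpt1b over Cpt1a the log2 difference ran from -1.80 to -0.98 with a library left out. With 3 and 4 libraries the test recovered no simulated gene changed 1.5-fold, so differences of that size were below what it could call.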
